A study of Mus musculus with 6 samples.

Results

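The genes for ADAR enzymes and for transcripts with known A-to-I recoding sites were described in small RNA libraries of mouse hearts. Of 9 listed genes, found by Ensembl identifier, 6 had an entry among the 10065 genes of the deposited table: Adarb1, Adar, Flna, Copa, Cyfip2 and Azin1. The other 3, Cog3, Blcap and Tmem63b, had no entry among those analysed here. Each library came from the whole heart of a female SV129 mouse at postnatal day 6, with 3 ADAR2-/- mice and 3 wild-type siblings. In ADAR2-/- mice both copies of Adarb1 are knocked out, and by the methods of the study the wild-type siblings were Adarb1+/+. Which part of the gene is changed is not given in the sources used here, so fragments of Adarb1 may come from either genotype. By the same methods both genotypes carried Gria2R/R, a glutamate receptor gene that encodes the edited form without editing, which rescues mice that lack ADAR2 from early death. The genotype label names Gria2R/R for the ADAR2-/- samples only.

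The table used here gives 1 level per gene, the authors' mean normalized count over all samples, and no value per animal. The mean pools the genotypes, so the knockout of Adarb1 could not be checked in it. No comparison of ADAR2-/- with wild-type hearts was made here. The table gives neither the spread between animals nor the depth of a library, so no level below has an error, and neighbours in an order of levels are not shown to differ. Protein-coding genes, 8439 in number, made up 81.5% of the summed means of 214408. The same reads may enter this sum more than once, through a short RNA gene and through a longer gene around it. Myh7 had 943.4 and Mir208b 937.6, and Myh6 had 424.5 and Mir208a 413.0. The 81.5% is therefore not shown to be the share of fragments from protein-coding transcripts. The 6 genes together had 56.3, or 0.0262% of the same sum. These are counts of short fragments on a gene and say nothing of the share of edited molecules.

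ADAR enzymes bind double-stranded RNA and deaminate adenosine to inosine, which is read as guanosine. ADAR1, encoded by Adar, edits many sites in repeats and keeps the cell's own double-stranded RNA from being sensed as foreign. ADAR2, encoded by Adarb1, edits selected positions that change a codon, the best known of which lies in Gria2. In muscle and vessels Flna is a prominent ADAR2 target. The stem that a recoding site needs is often formed with the neighbouring intron, so editing at such a site takes place before splicing.

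The coding sequence around each known recoding site is given, since these sites are what places the transcripts together. Each run is 27 bases of GENCODE M21 (GRCm38) coding sequence, 5′ to 3′ on the strand of the gene, and capitals mark the codon that editing changes. The sites were placed in the longest coding transcript by the codon number under which they are known.
Flna: gtttctagtcttCAGgagtcagggtta
Copa: cgcgtttgggatATTtctggtctaagg
Cog3: accattaaggaaATTtccctggacctc
Cyfip2: gccagatacattAAGaccagtgctcac
Blcap: atgTATtgcctccagtggctgctgccc
Azin1: caaattgtggaaAGCtgtcttcttcct
Tmem63b: gcctacgagttcCAGtttggcgcagcc

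In Flna the edited base is the middle A of a CAG codon, and editing makes it CGG, an arginine codon in place of glutamine. It lies at base 74226862 of chromosome X, minus strand, in exon 42 of 47. Only 1 base of the exon follows it, so the run of 27 bases crosses a splice junction. The Tmem63b site is also a CAG codon (chromosome 17, base 45662949, minus strand, exon 20 of 24), but 86 bases of the exon follow it.

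The first base of the codon is edited in Copa, Cog3, Cyfip2 and Azin1. ATT becomes GTT, valine for isoleucine, in Copa (chromosome 1, base 172092348, plus strand, exon 6 of 33, 6 bases before the exon's end) and in Cog3 (chromosome 14, base 75719719, minus strand, exon 17 of 23). AAG becomes GAG, glutamate for lysine, in Cyfip2 (chromosome 11, base 46272643, minus strand, exon 10 of 31). AGC becomes GGC, glycine for serine, in Azin1 (chromosome 15, base 38491612, minus strand, exon 11 of 12). In Blcap the codon after the start codon changes from TAT to TGT, cysteine for tyrosine (chromosome 2, base 157558149, minus strand, exon 2 of 2). For each of these 7 sites, 0 other genes have a transcript that shares a stretch of 22 bases with the run.

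Adarb1 had the highest mean of the 6 genes and Adar the lowest. For Adarb1 (ENSMUSG00000020262), on the minus strand of chromosome 10 from 77290726 to 77418270, the mean normalized count was 16.6, which is 2.45 times the median protein-coding gene of the table and lies at the 77.1 percentile of these genes. Adar (ENSMUSG00000027951, chromosome 3, 89715022 to 89753446, plus strand) had a mean of 1.87, at the 1.43 percentile, close to the lowest mean of any gene in the table, 1.09. The mean of Adarb1 was 8.90 times that of Adar. If the mean is taken over the 6 libraries, 1.87 stands for about 11.2 normalized counts in all of them together, and 16.6 for 99.6.

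Among the edited transcripts, Azin1, Cyfip2 and Flna had similar means and Copa a lower one. Azin1 (ENSMUSG00000037458, chromosome 15, 38487427 to 38519266, minus strand) encodes an inhibitor of antizyme, which controls polyamine synthesis, and had a mean normalized count of 12.8 (70.9 percentile). Cyfip2 (ENSMUSG00000020340, chromosome 11, 46193850 to 46312859, minus strand), a subunit of the WAVE complex that drives actin branching, had a mean of 11.3 (67.1 percentile). Flna (ENSMUSG00000031328, chromosome X, 74223461 to 74249820, minus strand), which cross-links actin filaments, had a mean of 10.5 (64.9 percentile). These 3 lie between the quartiles of protein-coding genes, 3.77 and 15.2. Copa (ENSMUSG00000026553, chromosome 1, 172082529 to 172122330, plus strand), the alpha subunit of the coat of Golgi vesicles, had a mean of 3.14 (16.2 percentile) and lies under that range with Adar.

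**Figure D1:**
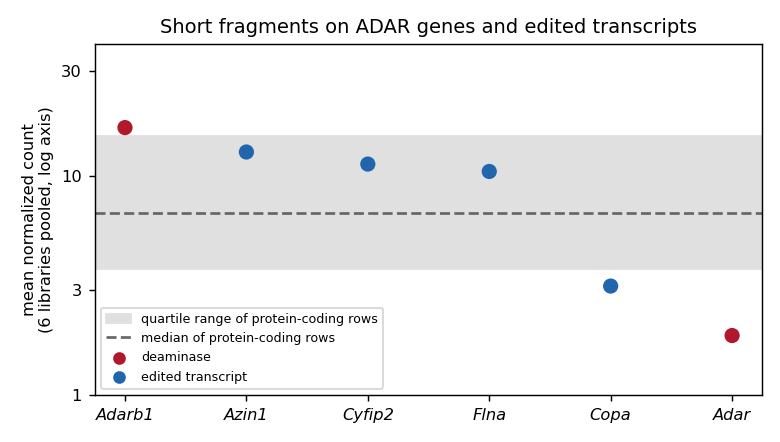
The authors' mean normalized count on a log axis for the 6 genes with an entry, deaminases in red and edited transcripts in blue, each point 1 pooled mean with no error. The dashed line is the median of protein-coding genes (6.77) and the grey band runs between their quartiles (3.77 to 15.2), above which only Adarb1 of the 6 lies and under which Copa and Adar lie.

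The order of these means does not compare genes per length, and gene length moved with the mean. Genes of the mitochondrial genome were left out here. Across 8396 other protein-coding genes with a known span, the Spearman correlation of the mean with the span of the gene, introns included, was 0.56. With the length of its exons it was 0.27, and with its longest transcript 0.25. Genes are not independent replicates and share the same libraries, so these are descriptions. From 100 kb to 300 kb of span the median mean was 13.5, and in genes of 300 kb or more it was 48.6, against 5.40 from 30 to 100 kb. The median level per kb of span was 0.0990 normalized counts from 30 to 100 kb, 0.0851 from 100 to 300 kb and 0.0964 at 300 kb or more. It was higher in shorter genes, with 0.208 from 10 to 30 kb, the range of Flna, and 0.949 under 10 kb, where few genes had an entry. Within each group of span the correlation of the mean with exon length was between -0.00093 and 0.11.

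**Figure D2:**
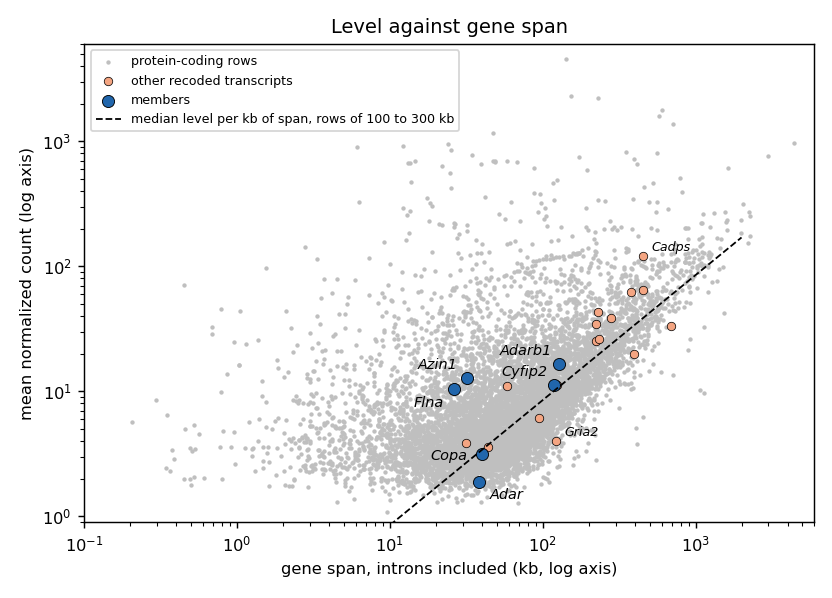
The authors' mean normalized count against gene span, both on log axes, with protein-coding genes in grey, the 6 genes in blue and other transcripts with recoding sites in orange. The dashed line is the median level per kb for genes of 100 to 300 kb (0.0851 per kb), which Cyfip2 and Copa lie near, while Flna and Azin1 lie above it and Adar below.

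Per kb of span, Flna and Azin1 were the highest of the 6 genes. Flna had 0.397 normalized counts per kb over a span of 26.4 kb, and Azin1 had 0.404 over 31.8 kb, at the 84.6 and 84.8 percentiles of protein-coding genes. Adarb1, with a span of 127.5 kb, had 0.130 per kb (54.9 percentile). Cyfip2, with 119.0 kb, had 0.0951 per kb (39.3 percentile). Copa had 0.0789 per kb over 39.8 kb (28.9 percentile) and Adar 0.0486 over 38.4 kb (7.42 percentile). Adarb1 therefore led on the mean but not per kb of span, whereas Adar was the lowest on each scale.

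Among genes with an entry the median level per kb of span was higher in shorter genes, as given above. Each gene was therefore also set beside genes of its own range of span, a comparison added after the data were seen. Flna had 2.65 times the median mean of genes of 10 to 30 kb (83.6 percentile of 1643 genes). Azin1 had 2.38 times the median of genes of 30 to 100 kb (83.8 percentile of 3752 genes). In that same range Copa had 0.58 times the median (17.1 percentile) and Adar 0.35 times (1.36 percentile). Among 1888 genes of 100 to 300 kb, Adarb1 had 1.23 times the median (61.4 percentile) and Cyfip2 0.84 times (39.4 percentile).

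Per kb of exons the spread of the 6 genes was as wide as on the mean, with 8.93-fold between the highest and the lowest. Azin1 had 2.05 normalized counts per kb of exons, Cyfip2 1.59, Adarb1 1.47, Flna 1.11, Copa 0.333 and Adar 0.230. The median of protein-coding genes was 1.36, which 3 of the 6 genes reached. Flna moved most between scales, from the 34.3 percentile per kb of its longest transcript to the 84.6 percentile per kb of span. Its longest transcript has 8.46 kb of its span of 26.4 kb.

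**Figure D3:**
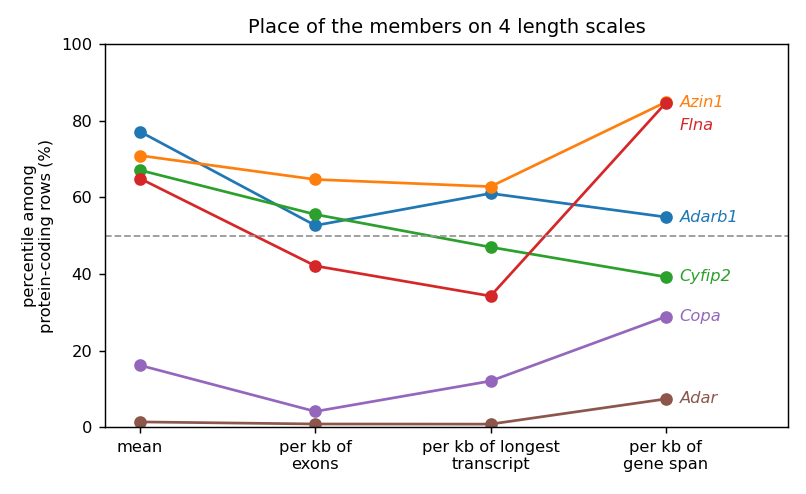
Percentile of each of the 6 genes among protein-coding genes of the table for the mean and for the mean per kb of exons, of the longest transcript and of gene span, 1 line per gene. Copa and Adar stay below the dashed line at 50 on all 4 scales, Azin1 and Adarb1 stay above it, and Flna runs from 34.3 to 84.6.

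The genes with no entry differ in span, and Cog3 is longer than 4 of the 6 genes that have one. Blcap, which encodes a small membrane protein (ENSMUSG00000067787, chromosome 2, 157556362 to 157571274, minus strand), spans 14.9 kb, and Tmem63b, an ion channel of the plasma membrane (ENSMUSG00000036026, chromosome 17, 45660171 to 45686905, minus strand), spans 26.7 kb. Cog3, a subunit of a tethering complex of the Golgi (ENSMUSG00000034893, chromosome 14, 75702350 to 75754517, minus strand), spans 52.2 kb. Of all annotated protein-coding genes of 10 to 30 kb, 25.3% had an entry, and of those of 30 to 100 kb, 72.6% had one. The share was 97.9% from 100 to 300 kb and 6.79% under 10 kb. Whether these 3 genes are transcribed in the heart cannot be read from the table.

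**Figure D4:**
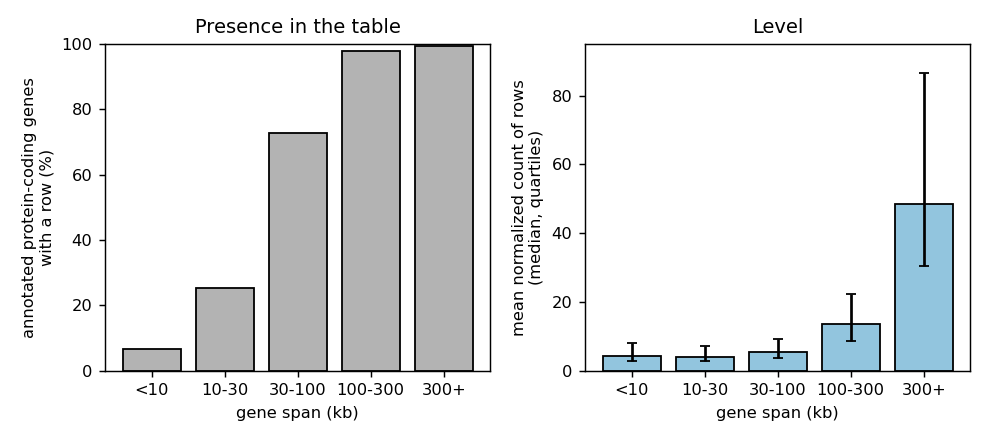
Left, share of annotated protein-coding genes with an entry in the table, in percent, by gene span in kb. Right, the authors' mean normalized count of the genes with an entry by span, bars at the median and lines to the quartiles, which rises from 5.40 in genes of 30 to 100 kb to 48.6 in genes of 300 kb or more.

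Of all 21938 annotated protein-coding genes outside the mitochondrial genome, 38.2% had an entry in the table. The counts of the lists that follow stand beside that share, but it rose with span and the lists are not matched for span. It was 6.79% under 10 kb, 97.9% from 100 to 300 kb and 99.3% at 300 kb or more. The deaminase family was represented by 4 of 5 genes. Besides Adarb1 and Adar these were Adarb2, which encodes the catalytically inactive ADAR3 of the brain, with a mean normalized count of 24.2, and Adad1, a testis relative of the family, with 3.29. Adarb2 spans 565.9 kb, and per kb of span it had 0.0428 normalized counts (4.36 percentile), lower than Adarb1 and Adar. Among genes of 300 kb or more its mean was 0.50 times the median. Of the family, Adarb1 alone was at or above the median protein-coding gene per kb of span.

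Of 25 transcripts with known recoding sites looked at, 20 had an entry, with means from 3.14 (Copa) to 120.8 (Cadps, which primes secretory vesicles). The 5 with none were Cog3, Blcap, Tmem63b, Neil1 and Kcna1, and the last 2 span 5.51 and 5.99 kb.

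Receptor transcripts used mainly by nerve cells had a higher median than broadly used ones such as Flna. All 8 glutamate, GABA and serotonin receptor genes on the list had an entry, with a median mean normalized count of 29.8 and a median span of 256.3 kb. The group taken here as broadly used held 12 genes, of which 8 had an entry, Flna, Copa, Cyfip2 and Azin1 among them. Cog3, Blcap, Tmem63b and Neil1 of this group had none and are in no median given here. The 8 genes with an entry had a median mean of 8.32 and a median span of 41.8 kb. How broadly each gene of the group is used was not tested. Per kb of exons the medians were 3.38 and 0.894, per kb of the longest transcript 5.39 and 0.961, and per kb of span 0.112 and 0.108, so only the last scale brought the groups close. A further 4 genes with an entry, Cadps, Cacna1d, Unc80 and Nova1, had a median mean of 54.0 and a median of 0.166 per kb of span. This grouping of the list was written after the values were seen and carries no test. The lowest of the receptor genes was Gria2, with a mean of 4.01 over 121.4 kb, or 0.0330 per kb (1.43 percentile). Its allele is changed in both genotypes, and whether that bears on its level was not tested.

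Partners and regulators of the ADAR enzymes had an entry for 12 of 21 genes, with means from 2.63 (Fmr1) to 109.8 (Snd1, a nuclease that binds inosine RNA). Wwp2, the ligase that marks ADAR2 for degradation, had a mean normalized count of 9.78. Per kb of span the highest was Srsf9, a splicing factor that represses editing by ADAR2, with 13.1 (mean 77.5, span 5.90 kb). Prkra, a partner of Dicer that binds double-stranded RNA, followed with 1.38 (mean 25.1). Of 8 genes listed for the sensing of double-stranded RNA, 2 had an entry. These were Ifih1 with a mean of 7.32 and Mavs, an adaptor rather than a sensor, with 3.57.

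Reads on the 6 genes could in principle belong to other genes, and both ways were looked at. Of the stretches of 22 bases in their transcripts, 1.32% of Adarb1, 0.79% of Copa, 0.39% of Azin1, 0.27% of Cyfip2, 0.11% of Flna and 0.037% of Adar also occur in transcripts of another gene. The shared stretches of Adarb1 occur in 3546 other genes, those of Azin1 in 469, of Copa in 263, of Cyfip2 in 128, of Adar in 3 and of Flna in 2. A share of stretches is not a share of reads, and how many reads fell on shared stretches is not known. Introns were not compared. No annotated gene overlaps Adarb1 or Flna. Adar overlaps Chrnb2 over 7252 bases, Copa overlaps Ncstn over 267 bases and Cyfip2 holds Fndc9, each on the opposite strand, and Azin1 holds Mir6951 on its own strand. On their own strands Copa also holds the processed pseudogene Gm38164 (330 bases) and Cyfip2 holds Gm12568 (624 bases), and antisense genes overlap Copa (Gm37756) and Azin1 (Gm49077). No annotated gene that overlaps any of the 6 had an entry of its own. How the authors counted reads on overlapping genes or with several matches is not given in the sources used here.

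Heart muscle genes were looked for as a check of the labelled tissue. Of 15 listed, 12 had an entry, with means from 2.59 (Tnni1) to 943.4 (Myh7). The means of Myh7 and Myh6 were almost those of the miRNAs inside them, since Mir208b had 99.4% of the mean of Myh7 and Mir208a 97.3% of that of Myh6. The 4 neuron markers also had entries, from 4.01 (Gria2) to 173.5 (Rbfox3, span 421.8 kb). Of 4 smooth muscle markers 0 had one, and their spans run from 6.44 kb (Tagln) to 96.8 kb (Myh11). Means also ran from 2.59 to 11.6 for 4 of 4 endothelial markers, from 5.40 to 44.8 for 4 of 5 matrix markers and from 2.45 to 4.85 for 4 of 5 erythroid markers, and 1 of 4 skeletal muscle markers had an entry (5.79). Both the share of genes with an entry and the mean were higher in long genes, and the marker lists are not matched for span. Per kb of span, 10 of 12 heart muscle genes with an entry were at or above the median protein-coding gene. So were 2 of 4 neuron, 1 of 4 endothelial, 4 of 4 matrix, 4 of 4 erythroid and 1 of 1 skeletal muscle markers with an entry. These counts do not correct for span. As the lowest mean of any gene was 1.09, a short gene with an entry lies above the median of 0.118 per kb whatever its level. That holds for the erythroid markers (spans up to 1.56 kb), Acta1 (2.98 kb), and Actc1 (6.27 kb) and Pln (8.32 kb) of the heart muscle genes. The part of other cell types in the levels of the 6 genes was not tested. Of the genes on the lists used here, Myh6 and Myh7 alone held a short RNA gene with an entry, so no such gene lies within any of the 6.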

How the data were processed

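The authors sequenced small RNA of hearts from 3 ADAR2-/- mice and 3 wild-type siblings. Per the labels' processing notes and the study's methods, adaptors were removed with cutadapt, reads were mapped with Bowtie to mm9 and genotypes were compared with DESeq. Versions and the annotation are not given in the sources used here. The only value used is the signal deposited by the authors, a mean over all samples of read counts divided by a size factor per library. The other 6 value columns hold the authors' own comparison of the genotypes (fold changes, an error, a statistic and P) and were not used.

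GENCODE M21 (GRCm38) gave names, coordinates and lengths by identifier. It held 10005 of 10065 identifiers, and the file holds no coordinates. Percentiles are the share of protein-coding genes at or below a value, over 8439 genes for the mean and 8409 with a length per kb. Levels were divided by gene span, the union of exons or the longest transcript. Genes of the mitochondrial genome were left out of the correlations, the ranges of span and the share with an entry. Named genes were the 9 listed genes, and of 4 lists the highest and lowest, further members being named after their values were seen. The lists held 3 further genes that are not reported here. Members and lists were chosen with earlier results of these data known. The length steps were tested on simulated data. The table does not give the depth per sample. Alternatives were all genes of the table, a mean of at least 10, each length and the same range of span. Python 3.11.15, numpy 2.4.6, pandas 2.3.3, scipy 1.17.1, matplotlib 3.10.9 and Biopython 1.88 were used.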

Additional observations from a re-analysis of the deposited data

How the results depend on the processing

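Of the 6 genes, 4 were at or above the median mean of protein-coding genes, and 4 also among all genes. The count was 3 per kb of exons, 3 per kb of span and 3 within the same range of span. It was 2 per kb of the longest transcript, and 0 of the 4 genes left when only means of at least 10 were kept, since that filter raises the median to 20.7. The percentile of Adarb1 (77.1) was 52.7 per kb of exons, 61.0 per kb of the longest transcript, 54.9 per kb of span, 61.4 within its range of span and 37.4 with means of at least 10. In the same order, Flna (64.9) had 42.1, 34.3, 84.6, 83.6 and 3.99. Cyfip2 (67.1) had 55.5, 47.0, 39.3, 39.4 and 9.92. Azin1 (70.9) had 64.7, 62.8, 84.8, 83.8 and 20.4. Copa (16.2) had 4.16, 12.1, 28.9 and 17.1, and Adar (1.43) had 0.89, 0.86, 7.42 and 1.36, neither with a mean of 10. Among all genes the percentiles moved by less than 1. Of the 59 genes on the editing lists, 38 had an entry and 22 a mean of at least 10. No paired analysis was possible because only a mean over samples is given, and for the same reason no replicate could be left out.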
